A study of Mus musculus with 8 samples.

Results

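The TNF ligand and receptor superfamily was followed in tail epidermis of mice whose labels give a keratinocyte deletion of Ppp1r8, a phosphatase regulator gene. Its members were taken by name: every gene whose symbol begins with Tnfsf (ligands) or Tnfrsf (receptors), with Cd40, Ltbr, Ltb, Eda, Edar and Ngfr added. The rule found 39 of the 46983 genes in the count table, namely 24 receptors, 13 ligands, 1 readthrough locus (Tnfsfm13) and 1 antisense RNA (Tnfsf13os). The rule used no measured value.

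Ligands of this family are mostly membrane proteins that act as trimers on the same or a neighbouring cell, and the receptors pass the signal on through TRAF adaptors to NF-kappaB or, where they carry a death domain, to cell death. In skin the family has several known jobs. Ectodysplasin (Eda) and its receptor Edar direct the formation of hair follicles, TNF drives inflammation of keratinocytes, and members such as GITR, OX40 and the lymphotoxins serve contact between lymphocytes, dendritic cells and epithelium.

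RNA was sequenced from 8 mice aged 8 weeks, 1 library per mouse, in 2 groups of 4. SKO mice had the genotype K14-Cre/+ Ppp1r8 fl/-. CTR mice had the genotype K14-Cre/+ Ppp1r8 fl/+. The strain label, the same for all 8 mice, names the transgene Tg(KRT14-cre)1Amc/J with the alleles Ppp1r8tm1Ave and Ppp1r8tm1.1Itl, so the controls too carried the KRT14-cre transgene and 1 floxed allele. The KRT14 promoter is active in basal keratinocytes, and leukocytes, melanocytes or nerve cells in the sheet were therefore not the cells in which Cre was driven. By the genotype labels, those cells too carried the minus allele in SKO and a + allele in CTR, whether or not Cre acted. They were thus not of like genotype in the 2 groups. The samples were peeled sheets with no sorting mentioned in the labels, so a lower level can come from fewer cells of a type or from less RNA per cell, which cannot be told apart.

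Library totals were 18649079 to 20500885 counts in SKO and 16696212 to 21571935 in CTR, and their means differed by less than the spread within the groups (two-sided exact permutation test, p = 0.8, n = 4 each). Ppp1r8 itself averaged 36.4 ± 8.00 CPM (read counts scaled to library depth) in SKO and 37.9 ± 3.58 CPM in CTR (SD, n = 4 each; log2 fold change -0.06, adjusted p = 0.789), so that its gene-level count did not check the labels. Xist, the RNA of the inactive X chromosome, was 330 to 574 CPM in SKO and 647 to 994 CPM in CTR, with no overlap (adjusted p = 0.00817), and its part in the results was not tested separately from the genotype. The keratinocyte marker genes summed to 55498 to 72357 CPM in SKO and 30515 to 35374 CPM in CTR, and the hair shaft genes to 109 to 787 CPM in SKO and 1827 to 3312 CPM in CTR. Krt1 (18366 CPM in SKO, 2488 CPM in CTR), Krt10 (31131 CPM in SKO, 15650 CPM in CTR) and Lor, genes of the upper layers, carried that difference, while Krt5, Krt14 and Trp63, genes of the basal layer, did not pass the test. The samples thus held the labelled epidermal cells in both groups, with hair shaft genes far lower in every SKO library.

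Of the 39 members, 23 had enough counts to be tested (17 receptors, 5 ligands and the antisense RNA). Lymphotoxin beta (Ltb) and the receptors Tnfrsf23, Tnfrsf25 and Tnfrsf18 were higher in SKO, and ectodysplasin (Eda) and the receptors Tnfrsf13c, Ngfr and Tnfrsf22 were lower. These 8 of 23 make 34.8%, against 23.7% of all 15638 genes tested (edgeR quasi-likelihood test, Benjamini-Hochberg adjusted p below 0.05). The 4 higher members are 17.4% of those tested, against 11.5% of all genes, and the 4 lower ones are likewise 17.4%, against 12.2%. Among the 23 tested members, the same 8 were those whose SKO and CTR libraries did not overlap, which was so for 26.2% of all genes. The median log2 fold change was 0.06 over the tested members and -0.0026 over all genes tested. Among the tested members, only Ltb had reached the count minimum through the SKO libraries alone. When the Xist level was added to the fit as a further term, 0 of the 8 members stayed past the threshold and only 77 of all genes did, against 3700 without it.

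Receptors made up nearly all of the family's RNA in this tissue. Their mean CPM summed to 452 in SKO and 458 in CTR, against 19.4 in SKO and 21.1 in CTR for the ligands. The summed level of the family was thus close in the 2 groups while single members moved. In both groups 11 of the 13 ligands stayed under 1 CPM on average, and so did 8 of the 24 receptors.

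Per kilobase of exon, the order of the 5 most abundant members was the same in SKO and CTR. Tnfrsf1a, the broadly expressed TNF receptor with a death domain, came first at 73.1 ± 1.57 CPM per kb in SKO and 70.3 ± 2.99 in CTR (SD, n = 4 each here and below). Ltbr, the lymphotoxin beta receptor, was at 22.6 ± 2.12 CPM per kb in SKO and 24.7 ± 2.76 in CTR. Tnfrsf19, a receptor found in epithelial and hair follicle progenitors, was at 18.6 ± 3.59 CPM per kb in SKO and 21.4 ± 2.73 in CTR. Ltbr and Tnfrsf19 were closer to each other than the sum of their SDs in both groups. Tnfrsf12a, the receptor of TWEAK, was at 17.3 ± 2.23 CPM per kb in SKO and 14.3 ± 3.72 in CTR, and in SKO its distance from Tnfrsf19 was within their SDs. Tnfrsf18 was the fifth, at 12.0 ± 0.429 CPM per kb in SKO and 7.36 ± 2.05 in CTR. The ligands stood far below these receptors. The most abundant ligand was Tnfsf18 in SKO, at 2.85 ± 0.700 CPM per kb against 1.34 ± 0.882 in CTR. In CTR it was Eda, which had 1.28 ± 0.201 CPM per kb in SKO and 2.31 ± 0.0700 in CTR.

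**Figure D1:**
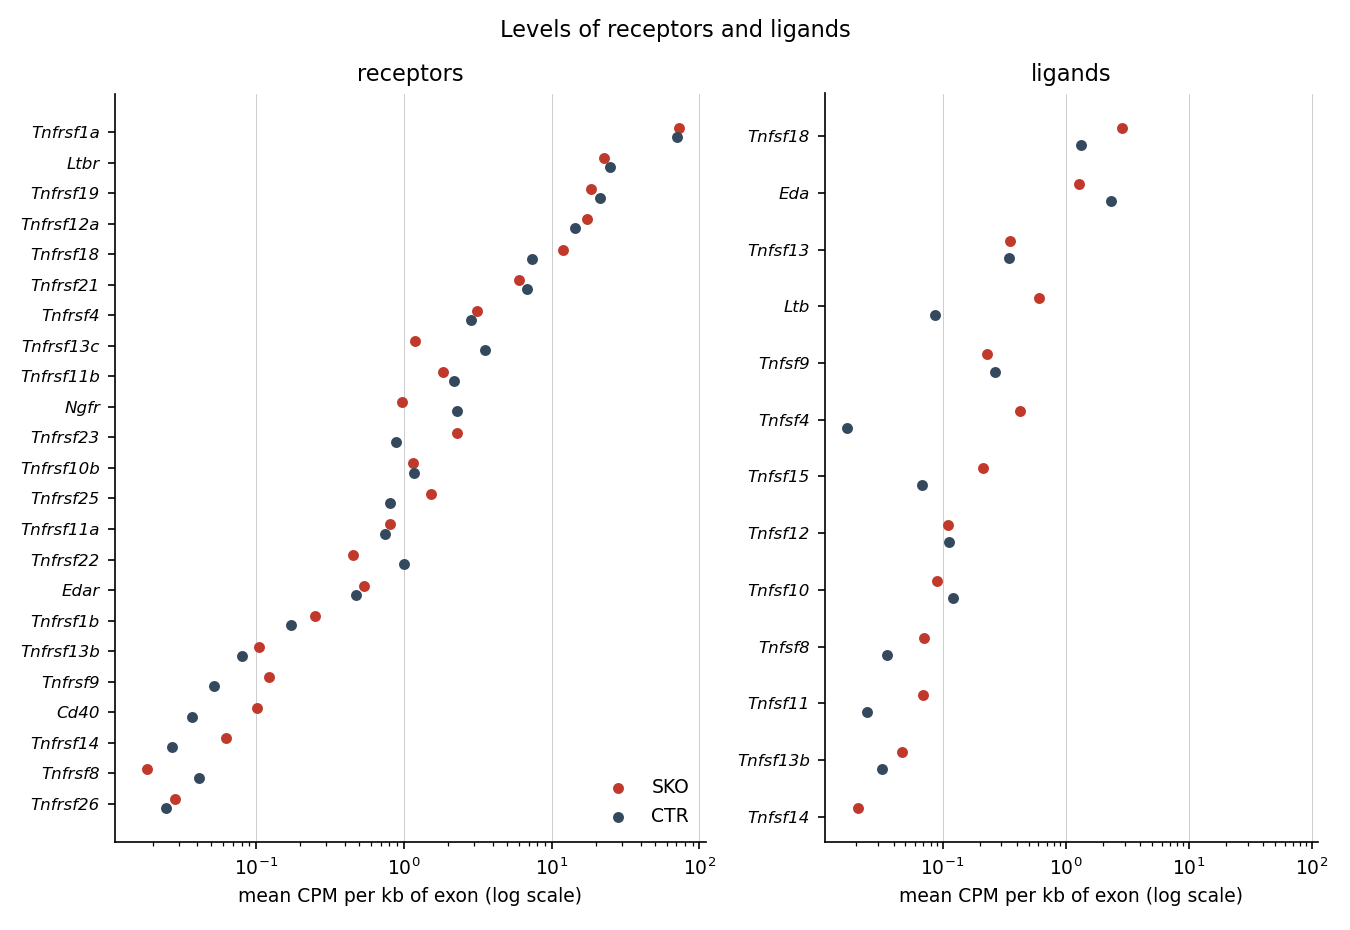
Mean level of each receptor (left) and ligand (right) in CPM per kilobase of exon, on a log axis, in SKO (red) and CTR (dark blue), each over 4 libraries. Tnfrsf1a lies at 73.1 in SKO and 70.3 in CTR, above every other member; Tnfrsf17, with 0 counts in all libraries, and the CTR level of Tnfsf14, also 0, cannot be drawn.

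**Figure D2:**
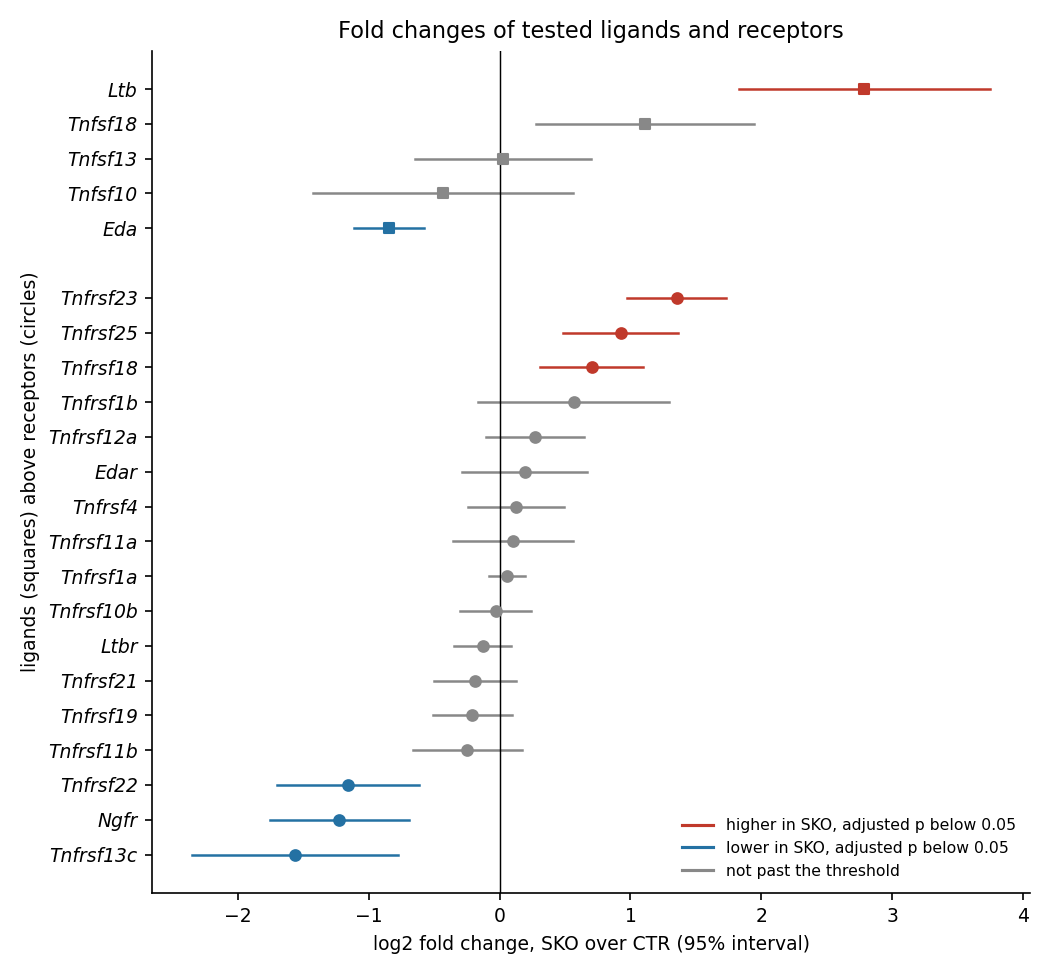
Log2 fold change of SKO over CTR with its 95% interval for the 5 ligands (squares) and 17 receptors (circles) tested, red where higher and blue where lower past an adjusted p of 0.05. Ltb at 2.79 and Tnfrsf13c at -1.56 are the ends of the scale, and the 11 receptors in grey lie between -0.25 and 0.57.

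Eda, the X-linked ligand of hair follicle and sweat gland development, was the abundant ligand that fell. Its level was 7.44, 8.90, 10.6 and 8.10 CPM in SKO libraries 1 to 4, against 15.8, 15.3, 15.6 and 16.4 CPM in CTR libraries 1 to 4. Every SKO library lay below every CTR library, and the CTR libraries were nearly equal. The mean was 8.77 ± 1.37 CPM in SKO and 15.8 ± 0.478 CPM in CTR, 1.80-fold lower in SKO (log2 fold change -0.85, SE 0.12, adjusted p = 0.00154). On the X chromosome 11.2% of the tested genes were lower in SKO. Eda lies on the plus strand at chrX:99975606-100400762 of GRCm38, and the 250 bases before its RefSeq start are printed because Eda is the abundant ligand that passed the test:

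Eda, chrX:99975356-99975605, plus strand, 5′ to 3′: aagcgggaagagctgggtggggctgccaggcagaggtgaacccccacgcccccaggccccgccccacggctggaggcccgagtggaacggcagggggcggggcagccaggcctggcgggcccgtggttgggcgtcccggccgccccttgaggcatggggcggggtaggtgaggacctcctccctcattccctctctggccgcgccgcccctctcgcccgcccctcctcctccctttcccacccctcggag

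Neither of the motifs searched, the NF-kappaB consensus and the AP-1 site TGANTCA on both strands, was found in these letters, which says nothing of the factors themselves.

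Edar, the receptor of Eda, did not pass the test. It was at 1.89, 2.53, 1.85 and 1.59 CPM in SKO and at 1.54, 1.44, 2.04 and 1.88 CPM in CTR. The ranges overlapped, and the log2 fold change of 0.19 had a 95% interval of -0.28 to 0.67 (adjusted p = 0.543). Eda2r, the receptor of the other splice form of ectodysplasin and outside the name rule, was at 8.39, 8.60, 8.01 and 8.21 CPM in SKO, against 2.97, 3.85, 3.16 and 3.48 CPM in CTR. It was thus higher in every SKO library (log2 fold change 1.30, adjusted p = 0.000316), with Eda lower. Gene-level counts do not separate the splice forms of Eda.

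The ectodysplasin list held 12 genes besides the members, and 10 of them were tested. Of these 1 was higher in SKO (Eda2r) and 3 were lower, against 11.5% and 12.2% of all genes tested. The 10 genes had a median log2 fold change of -0.36, against -0.0026 over all genes tested. The lower genes numbered 5 at an unadjusted p below 0.05 with edgeR and 4 by DESeq2. They numbered 4 with neighbouring mouse numbers as a block and 2 to 4 in the fits without 1 library. Edaradd, the adaptor that binds the death domain of Edar, averaged 21.001 ± 2.81 CPM in SKO and 28.1 ± 2.59 CPM in CTR (log2 fold change -0.42, adjusted p = 0.0225, and up to 0.0629 when 1 library was left out). Tab2, which links TRAF6 to the kinase TAK1, averaged 249.8 ± 12.4 CPM in SKO and 311 ± 12.4 CPM in CTR (log2 fold change -0.31, adjusted p = 0.0101). Bmp4, a signal of the follicle mesenchyme and matrix, averaged 4.90 ± 2.25 CPM in SKO and 11.7 ± 2.68 CPM in CTR (log2 fold change -1.25, adjusted p = 0.0152). All 7 hair shaft genes were lower in SKO, while 0 of the 6 genes of the hair follicle bulge and germ passed (1 lower at an unadjusted p below 0.05, and 1 lower by DESeq2). The part of these follicle levels in the result for Eda was not tested.

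Ltb (chr17:35194439-35196320, plus strand), which joins with lymphotoxin alpha into the ligand of Ltbr, had the largest fold change of the tested members but few reads. Its counts were 29, 14, 18 and 11 in SKO, against 2, 2, 3 and 3 in CTR. This was 1.52, 0.708, 0.901 and 0.582 CPM in SKO, and 0.102, 0.0962, 0.186 and 0.141 CPM in CTR. The CTR libraries lay at or near the level of 3 counts, and the lowest SKO library lay above all of them. The mean was 0.928 ± 0.416 CPM in SKO and 0.131 ± 0.0413 CPM in CTR (log2 fold change 2.79, SE 0.43, adjusted p = 0.0023). Over summed counts, 72 in SKO and 10 in CTR, the depth-corrected ratio was 7.20 (95% counting interval 3.70 to 15.7). The 182 bases before its GENCODE start are printed, a part of the RefSeq promoter entry, because Ltb is the called ligand whose upstream stretch holds the NF-kappaB consensus, given in capitals:

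Ltb, chr17:35194257-35194438, plus strand, 5′ to 3′: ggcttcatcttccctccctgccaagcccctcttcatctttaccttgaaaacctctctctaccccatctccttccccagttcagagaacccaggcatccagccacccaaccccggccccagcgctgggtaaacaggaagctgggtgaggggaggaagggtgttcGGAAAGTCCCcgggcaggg

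Of the 30 members with a RefSeq promoter, 4 held the NF-kappaB consensus in the bases before the start (13.3%), against 7.25% of all promoter entries. The 4 were Ltb, Tnfrsf25, Tnfrsf8 and Tnfrsf9, and a member with several entries counted once if any of them held it. For both motifs searched, this can raise the share of members above a share counted by entry, so the percentages are not like for like. The AP-1 site TGANTCA was in 5 of the 30 (16.7%), against 6.75% of all entries. A match in the letters is a description and not a measured binding site.

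Ltbr did not pass the test, at 54.8, 54.1, 46.2 and 57.9 CPM in SKO and 55.2, 52.0, 58.7 and 67.1 CPM in CTR. Its log2 fold change was -0.13 with a 95% interval of -0.35 to 0.09 (adjusted p = 0.365). Lta, the partner chain of Ltb, was not tested, with 24 counts in SKO and 14 in CTR. Some T cell genes were higher too. The 8 pan-leukocyte and T cell markers summed to 16.04 to 28.7 CPM in SKO and 9.48 to 15.5 CPM in CTR, most of it Trbc2. Cd3e and Trbc2 were higher, Lck (1.03 CPM in SKO, 0.986 CPM in CTR) and Ptprc did not pass with edgeR, and 4 were not tested. Ptprc averaged 3.08 CPM in SKO and 1.72 CPM in CTR (log2 fold change 0.87, adjusted p = 0.0709 with edgeR and 0.0412 by DESeq2). The 6 gamma delta T cell markers summed to 1.69 to 3.34 CPM in SKO and 0.141 to 0.928 CPM in CTR, and Trdc, the only one tested, was higher. Cd3e (69 counts in SKO, 12 in CTR) and Trdc (112 in SKO, 21 in CTR) had reached the count minimum through the SKO libraries alone. The 8 Langerhans and dendritic cell markers summed to 179 to 264 CPM in SKO and 95.2 to 150 CPM in CTR, with 5 higher. In none of these 3 lists was a marker at 0 throughout, and their part in the results for Ltb and for the lymphocyte receptors described next was not tested.

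**Figure D3:**
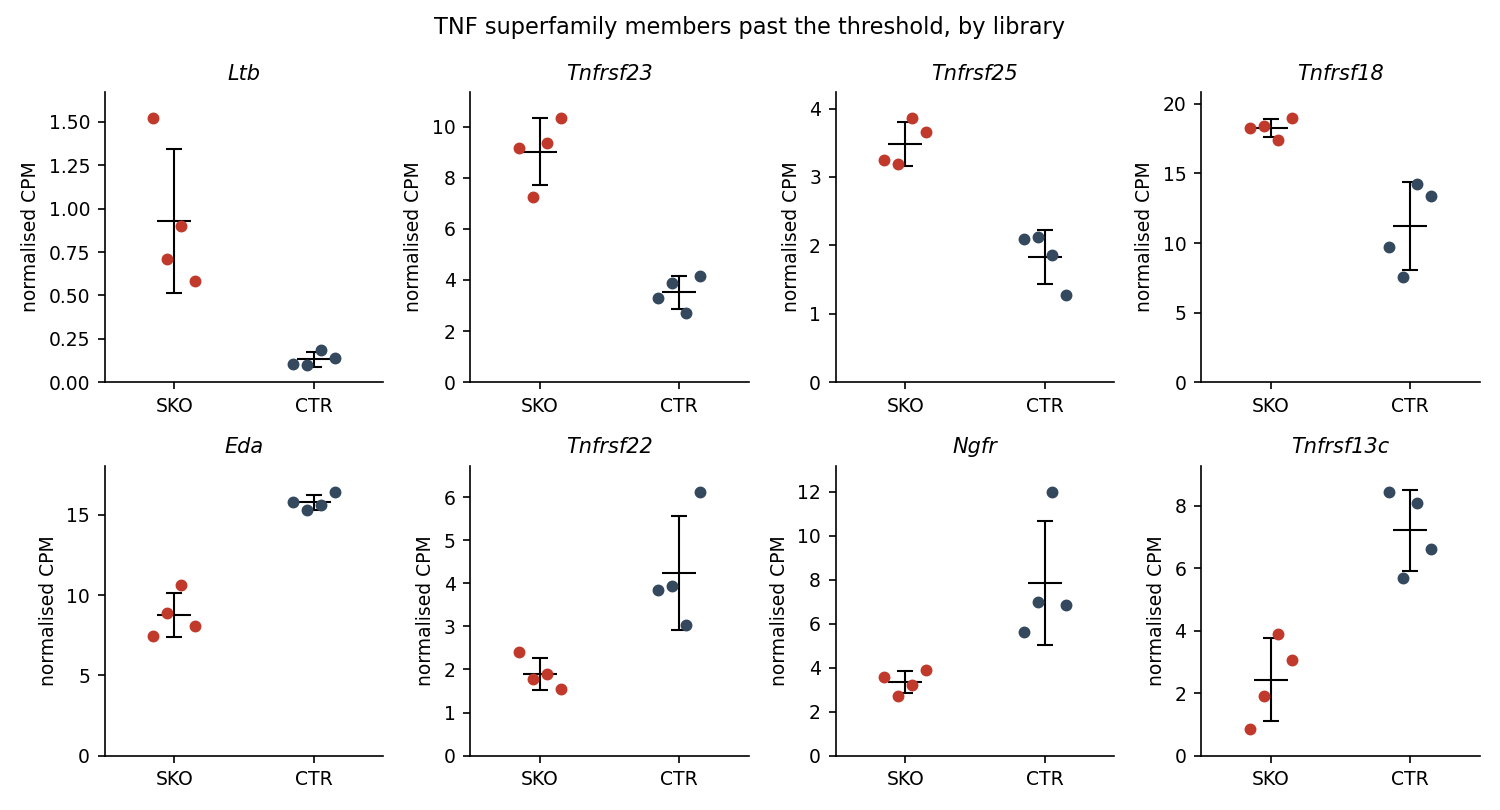
Normalised CPM of the 8 members past an adjusted p of 0.05, by library (points), with mean and SD (bars), SKO left of CTR. In each panel the 4 SKO points and the 4 CTR points do not overlap; Ltb, Tnfrsf23, Tnfrsf25 and Tnfrsf18 (top) are higher in SKO, and Eda, Tnfrsf22, Ngfr and Tnfrsf13c (bottom) are lower.

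Tnfrsf18 encodes GITR, a receptor of T cells that is also found on other cells, and Tnfsf18 is its ligand. Tnfrsf18 was at 18.3, 18.4, 17.4 and 19.0 CPM in SKO, against 9.73, 7.55, 14.2 and 13.4 CPM in CTR. The SKO libraries were close together and all above the more scattered CTR libraries. The mean was 18.3 ± 0.654 CPM in SKO and 11.2 ± 3.13 CPM in CTR, 1.63-fold higher in SKO (log2 fold change 0.71, SE 0.18, adjusted p = 0.0178, and 0.0521 without CTR library 1). The gene lies at chr4:156026164-156028895 on the plus strand, and the antisense gene Gm16008 overlaps 414 bases of its exons. Gm16008 went the other way, with 0.552 CPM in SKO and 1.12 CPM in CTR (log2 fold change -1.01, adjusted p = 0.0147), and whether the counting used strand is not stated in the labels. Tnfsf18 was at 3.93, 5.87, 6.41 and 7.36 CPM in SKO and at 1.38, 2.26, 5.44 and 1.98 CPM in CTR. CTR library 3 lay within the SKO range, and Tnfsf18 missed the threshold (log2 fold change 1.11, SE 0.37, adjusted p = 0.0551). It passed at 0.00582 without CTR library 3, at 0.0374 without SKO library 1, at 0.0136 by DESeq2 and at 0.0136 with neighbouring mouse numbers as a block. Of 17 alternative fits it passed in 7 and missed the threshold in 10. Its adjusted p was up to 0.281 in these fits, and up to 0.124 in those without 1 library.

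Tnfsf4, the OX40 ligand carried by antigen-presenting cells, is the neighbour of Tnfsf18 on chromosome 1, 76.2 kb away. It was too low to be tested, with 29, 13, 14 and 5 counts in SKO, against 0, 0, 2 and 0 in CTR. All SKO libraries were above all CTR libraries, and the depth-corrected ratio of summed counts, 61 in SKO against 2 in CTR, was 30.5 (95% counting interval 8.09 to 258). In the fit without a count minimum its adjusted p was 0.00165. Its receptor Tnfrsf4 (OX40), 9.55 kb from Tnfrsf18 on chromosome 4, was at 4.77, 4.15, 3.76 and 4.34 CPM in SKO and 3.84, 3.95, 3.09 and 4.66 CPM in CTR, which overlapped (log2 fold change 0.13, adjusted p = 0.608).

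Tnfrsf25 encodes DR3, a death domain receptor of T cells whose ligand TL1A is the product of Tnfsf15. The gene, at chr4:152115934-152120119 on the plus strand, was at 3.25, 3.19, 3.86 and 3.65 CPM in SKO, against 2.1, 2.12, 1.86 and 1.27 CPM in CTR. The groups did not overlap, and the mean was 1.90-fold higher in SKO, 3.49 ± 0.322 CPM in SKO and 1.84 ± 0.395 CPM in CTR (log2 fold change 0.93, SE 0.20, adjusted p = 0.00898). Tnfsf15 was not tested, with 12, 18, 18 and 8 counts in SKO and 2, 9, 3 and 4 in CTR. The ranges met between the lowest SKO library and CTR library 2, and the depth-corrected ratio of summed counts, 56 in SKO against 18 in CTR, was 3.11 (95% counting interval 1.80 to 5.62). In the fit without a count minimum its adjusted p was 0.0253. Tnfrsf25 and Tnfrsf18 lie on chromosome 4, which also carries Ppp1r8 and 9 of the 39 members. Of its 4 tested members 2 passed, against 24.4% of all tested genes of that chromosome.

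The mouse decoy receptors of TRAIL, Tnfrsf22 and Tnfrsf23, moved in opposite directions although they are neighbours, 16.1 kb apart on the minus strand of chromosome 7 (chr7:143634806-143649661 for Tnfrsf22, chr7:143665809-143685872 for Tnfrsf23). Both bind TRAIL and lack a death domain. Tnfrsf23 was at 9.17, 7.23, 9.37 and 10.3 CPM in SKO, against 3.28, 3.90, 2.72 and 4.14 CPM in CTR. Tnfrsf22 was at 2.41, 1.77, 1.90 and 1.54 CPM in SKO, against 3.84, 3.95, 3.03 and 6.12 CPM in CTR. Neither gene's groups overlapped. Tnfrsf23 was 2.56-fold higher in SKO (9.02 ± 1.30 CPM in SKO, 3.51 ± 0.639 CPM in CTR; log2 fold change 1.35, SE 0.17, adjusted p = 0.000963). Tnfrsf22 was 2.23-fold lower in SKO (1.90 ± 0.370 CPM in SKO, 4.23 ± 1.32 CPM in CTR; log2 fold change -1.16, SE 0.24, adjusted p = 0.00878).

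The 2 genes are similar copies, and reads from their shared stretches could be split or lost in counting. Their coding sequences of 597 bases (Tnfrsf22) and 531 bases (Tnfrsf23) matched in 481 of 531 aligned columns (90.6%), and 527 stretches of 75 bases, the read length, occurred in the exons of both, 12.6% of those of Tnfrsf22 and 13.1% of those of Tnfrsf23. Counted against all other genes on either strand, 870 stretches of Tnfrsf22 (20.8%) and 552 of Tnfrsf23 (13.7%) were shared. The further genes included Gm47486 and AC136710.2 for Tnfrsf22 and E230032D23Rik for Tnfrsf23. A stretch of 90 coding bases, read from the GENCODE M21 transcripts, is printed to show a part in which every stretch of 75 bases differs between Tnfrsf22 and Tnfrsf23, with the 12 differing bases in capitals:

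Tnfrsf22, coding bases 77 to 166: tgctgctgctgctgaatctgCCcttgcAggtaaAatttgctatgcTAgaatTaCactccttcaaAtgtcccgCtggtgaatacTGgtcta
Tnfrsf23, coding bases 47 to 136: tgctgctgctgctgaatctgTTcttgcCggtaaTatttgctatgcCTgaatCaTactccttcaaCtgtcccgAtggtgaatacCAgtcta

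Added up as 1 feature, an alternative chosen after the data were seen, the 2 genes were at 11.6, 9.001, 11.3 and 11.9 CPM in SKO and 7.12, 7.84, 5.75 and 10.3 CPM in CTR. Opposite changes make such a sum small, and it tests neither gene. The sum overlapped between the groups and missed the threshold (log2 fold change 0.49, SE 0.17, adjusted p = 0.0662). Tnfrsf26, the third gene of the cluster, had 7 counts in SKO and 6 in CTR. The TRAIL gene Tnfsf10 was at 0.629, 0.303, 0.701 and 0.265 CPM in SKO and at 0.717, 0.241, 0.681 and 0.941 CPM in CTR, which overlapped (log2 fold change -0.43, adjusted p = 0.508). The signalling TRAIL receptor Tnfrsf10b was at 6.32 ± 0.271 CPM in SKO and 6.44 ± 0.645 CPM in CTR (log2 fold change -0.03, adjusted p = 0.885).

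Tnfrsf13c (chr15:82221743-82224369, minus strand), which encodes the BAFF receptor of B cells, was at 0.839, 1.92, 3.91 and 3.07 CPM in SKO, against 8.45, 5.68, 8.10 and 6.64 CPM in CTR. The groups did not overlap, and the mean of 2.43 ± 1.34 CPM in SKO was 2.95-fold lower than the 7.22 ± 1.29 CPM in CTR (log2 fold change -1.56, SE 0.35, adjusted p = 0.0119). The 5 B and plasma cell markers summed to only 0.303 to 0.900 CPM in SKO and 1.18 to 1.55 CPM in CTR, below the level of Tnfrsf13c in every CTR library. Ms4a1 was at 0, Cd79a had 1 count in SKO and 1 in CTR, and Cd79b had 3 counts in SKO and 1 in CTR. The part of B cells in the result was not tested. The ligand BAFF, the product of Tnfsf13b, was not tested, with 6, 6, 8 and 5 counts in SKO and 4, 5, 4 and 4 in CTR.

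Ngfr (chr11:95568818-95587735, minus strand) encodes the neurotrophin receptor that Schwann cells, nerve-associated cells and some follicle cells carry. It was at 3.56, 2.73, 3.21 and 3.92 CPM in SKO, against 5.63, 6.98, 12.0 and 6.87 CPM in CTR. All SKO libraries lay below all CTR libraries, among which library 3 was the highest. The mean was 3.35 ± 0.508 CPM in SKO and 7.87 ± 2.82 CPM in CTR, 2.34-fold lower in SKO (log2 fold change -1.22, SE 0.24, adjusted p = 0.00623). The 5 Schwann cell markers summed to 46.2 to 52.2 CPM in SKO and 55.0 to 64.1 CPM in CTR, with 1 of 3 tested lower and none at 0. The 5 melanocyte markers summed to 295 to 512 CPM in SKO and 202 to 311 CPM in CTR, with 4 higher. The part of either cell type in the result was not tested.

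Bdnf and Ntf3, neurotrophins that bind Ngfr, did not pass the test. Bdnf was at 2.94, 2.53, 2.15 and 2.44 CPM in SKO and 1.69, 2.45, 1.73 and 2.26 CPM in CTR (log2 fold change 0.30, adjusted p = 0.289). Ntf3 was at 1.89, 2.88, 3.56 and 2.06 CPM in SKO and 1.69, 2.31, 3.34 and 1.79 CPM in CTR (log2 fold change 0.20, adjusted p = 0.632). The groups overlapped for both. Of the 9 neurotrophin ligands and receptors besides Ngfr, 7 were tested and 0 passed with edgeR (1 higher and 1 lower at an unadjusted p below 0.05, 0 by DESeq2 and 1 lower in the blocked fit). Sort1, a co-receptor and the most abundant of them, averaged 227 ± 23.1 CPM in SKO and 269 ± 24.0 CPM in CTR (log2 fold change -0.25, adjusted p = 0.0862, and 0.0360 with neighbouring mouse numbers as a block). Ntrk2, the BDNF receptor, averaged 54.5 ± 23.7 CPM in SKO and 53.2 ± 11.2 CPM in CTR (adjusted p = 0.941).

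TNF itself, outside the name rule, passed the test while its receptors did not. Tnf was at 1.21, 1.87, 0.902 and 1.32 CPM in SKO, against 0.307, 0.192, 0.371 and 0.235 CPM in CTR. It was higher in every SKO library, 1.33 ± 0.405 CPM in SKO against 0.277 ± 0.0789 CPM in CTR (log2 fold change 2.26, SE 0.33, adjusted p = 0.00167). Tnf had 103 summed counts in SKO and 21 in CTR, and reached the count minimum through the SKO libraries alone. Its main receptor Tnfrsf1a was at 192, 191, 183 and 191 CPM in SKO and 183, 173, 181 and 192 CPM in CTR, with a log2 fold change of 0.06 and a 95% interval of -0.08 to 0.20 (adjusted p = 0.543). Tnfrsf1b, the TNF receptor of leukocytes, averaged 0.964 ± 0.130 CPM in SKO and 0.657 ± 0.305 CPM in CTR (log2 fold change 0.57, adjusted p = 0.234).

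**Figure D4:**
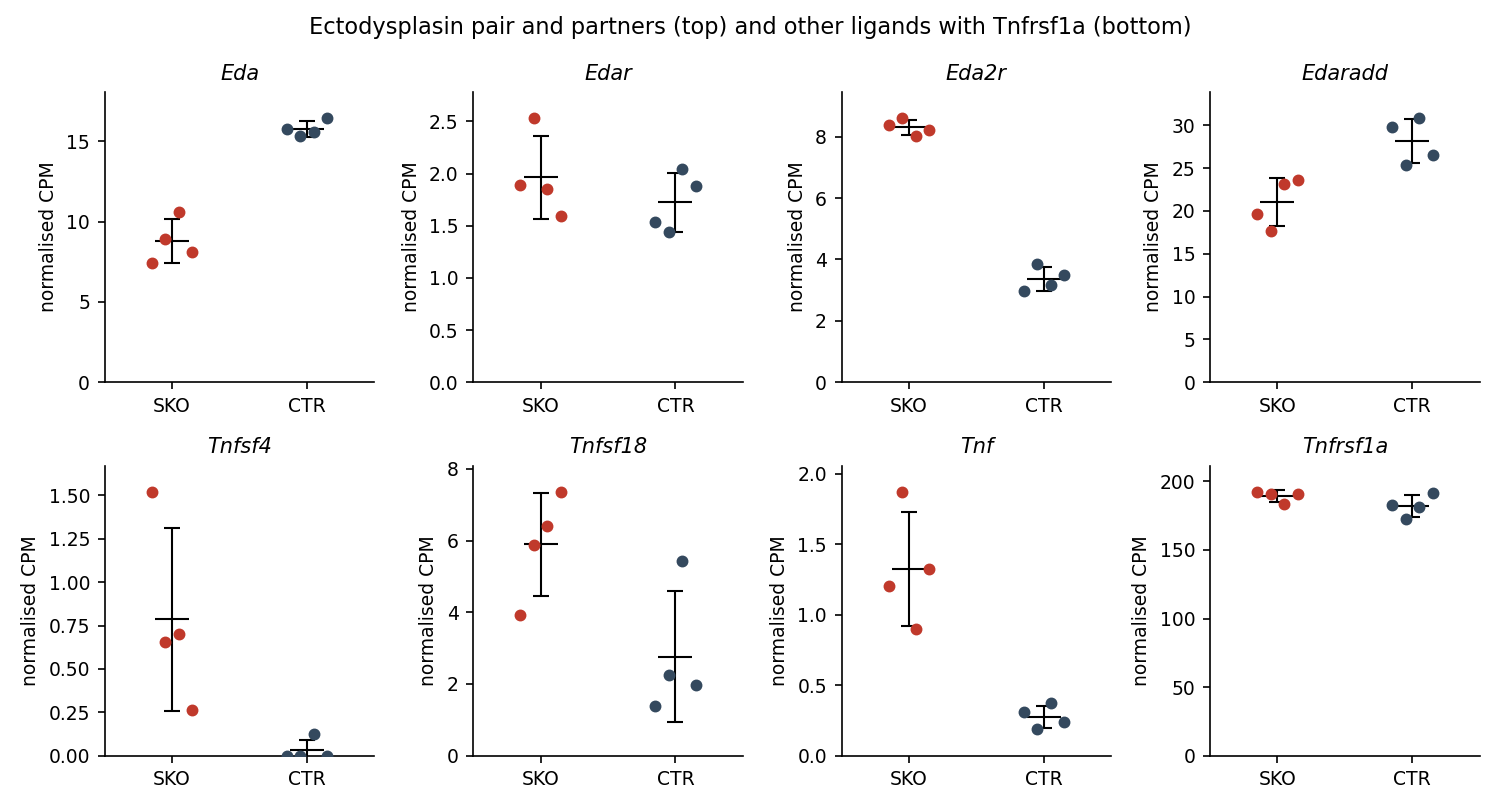
Normalised CPM by library (points) with mean and SD (bars), SKO left of CTR, for Eda, its receptors Edar and Eda2r and the adaptor Edaradd (top), and for Tnfsf4, Tnfsf18, Tnf and Tnfrsf1a (bottom). Eda and Edaradd are lower and Eda2r higher in every SKO library, while the Edar points overlap; Tnf is higher in every SKO library beside a Tnfrsf1a level of 183 to 192 CPM in SKO and 173 to 192 CPM in CTR.

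Across 29 listed pairs of ligand and receptor, both genes were tested in 12, and in 0 of these did both pass the threshold with edgeR. At an unadjusted p below 0.05 it was 1 pair, Tnfsf18 with Tnfrsf18, and it was the same pair by DESeq2 and with neighbouring mouse numbers as a block. The list did not hold Eda with Eda2r, which passed in opposite directions. In 8 pairs the receptor passed and its ligand did not pass or was not tested. In 4 pairs the ligand passed and the tested receptor did not: Ltb with Ltbr, Eda with Edar, and Tnf with Tnfrsf1a and with Tnfrsf1b. Of these ligands, Ltb and Tnf had reached the count minimum through the SKO libraries alone.

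The remaining tested receptors did not pass. Tnfrsf19 was at 73.0, 76.8, 91.8 and 110 CPM in SKO and 92.5, 88.8, 115 and 110 CPM in CTR (log2 fold change -0.21, adjusted p = 0.298). Tnfrsf12a was at 31.1, 38.9, 29.1 and 34.6 CPM in SKO and 25.1, 20.98, 26.9 and 37.8 CPM in CTR (log2 fold change 0.27, adjusted p = 0.267). CTR library 4 was its highest control, and without it the log2 fold change was 0.46 with an adjusted p of 0.0349. Tnfrsf21, a death domain receptor, averaged 24.6 ± 4.83 CPM in SKO and 28.1 ± 3.35 CPM in CTR (adjusted p = 0.360). The RANK receptor Tnfrsf11a averaged 4.81 ± 0.859 CPM in SKO and 4.48 ± 1.07 CPM in CTR (adjusted p = 0.749), and the soluble decoy Tnfrsf11b averaged 5.18 ± 1.09 CPM in SKO and 6.15 ± 0.991 CPM in CTR (adjusted p = 0.365). Tnfsf13, the APRIL gene, averaged 0.577 ± 0.161 CPM in SKO and 0.569 ± 0.146 CPM in CTR (adjusted p = 0.959), and its antisense RNA Tnfsf13os 0.897 CPM in SKO and 0.704 CPM in CTR (adjusted p = 0.503). Exons of Tnfsf13 and Tnfsf12 are shared with the readthrough locus Tnfsfm13, which holds 55.7% and 45.8% of their stretches of 75 bases, so the counts of these 3 genes are uncertain.

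The 16 members too low to be tested were 7 receptors, 8 ligands and the readthrough locus. Besides Tnfsf4, Tnfsf15, Tnfsf13b and Tnfrsf26, Cd40, the co-stimulatory receptor of antigen-presenting cells, had 8, 7, 6 and 6 counts in SKO and 0, 3, 2 and 5 in CTR. Its groups did not overlap, with a depth-corrected summed ratio of 2.70 (95% counting interval 1.27 to 6.25), but its adjusted p in the fit without a count minimum was 0.139. Tnfrsf9, a co-stimulatory receptor of activated T cells, had 26 counts in SKO and 11 in CTR, a ratio of 2.36 with an interval of 1.13 to 5.30, and in that fit had an adjusted p of 0.142. The other members had summed counts of 0 to 23 in SKO and 0 to 26 in CTR. Tnfsf8 had 21 counts in SKO and 10 in CTR, Tnfsf9 had 23 in SKO and 26 in CTR, and Tnfsf11, the RANK ligand, had 12 in SKO and 4 in CTR. Tnfsf12 had 13 counts in each group, Tnfsf14 had 3 in SKO and 0 in CTR, and Tnfsfm13 had 16 in SKO and 6 in CTR. Tnfrsf13b had 23 counts in SKO and 17 in CTR, Tnfrsf8 had 5 in SKO and 11 in CTR, and Tnfrsf14 had 7 in SKO and 3 in CTR. Tnfrsf17, the plasma cell receptor BCMA, had 0 counts in all 8 libraries, which allows up to 0.0388 CPM over the SKO group and 0.0383 CPM over the CTR group.

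Family genes with other names and the signalling genes downstream were set beside the members. Of 9 superfamily genes outside the name rule, 4 were tested: Tnf, Fas and Eda2r were higher in SKO and Relt was lower. Of all genes tested, 11.5% were higher and 12.2% lower. The median log2 fold change of these 4 genes was 1.27, against -0.0026 over all genes tested. It only describes 4 genes and includes Tnf, which reached the count minimum through the SKO libraries alone. The death receptor Fas averaged 3.10 ± 0.922 CPM in SKO and 1.31 ± 0.203 CPM in CTR (log2 fold change 1.23, adjusted p = 0.00669). Relt averaged 0.871 ± 0.218 CPM in SKO and 1.45 ± 0.153 CPM in CTR (log2 fold change -0.73, adjusted p = 0.0442), but lost the call in DESeq2 (adjusted p = 0.0959), with neighbouring mouse numbers as a block (0.0644) and in 7 of the 8 fits without 1 library (up to 0.114).

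Of the 13 TRAF adaptors and genes of the noncanonical NF-kappaB route, all tested, 6 were higher in SKO and 0 lower (also 0 lower at an unadjusted p below 0.05 and by DESeq2), against 11.5% and 12.2% of all genes tested. Their median log2 fold change was 0.35, against -0.0026 over all genes tested. Nfkb2, the precursor subunit of that route, averaged 32.3 ± 4.59 CPM in SKO and 19.6 ± 1.88 CPM in CTR (log2 fold change 0.72, adjusted p = 0.00279). Its partner Relb averaged 18.2 ± 2.99 CPM in SKO and 11.3 ± 2.50 CPM in CTR (log2 fold change 0.69, adjusted p = 0.0210, and 0.0554 without SKO library 4). The adaptor Traf2 averaged 28.8 ± 3.62 CPM in SKO and 21.1 ± 2.12 CPM in CTR (log2 fold change 0.45, adjusted p = 0.0160). The inhibitor of apoptosis Birc3 averaged 24.4 ± 3.07 CPM in SKO and 18.2 ± 0.918 CPM in CTR (log2 fold change 0.43, adjusted p = 0.0142). The others were the kinase genes Chuk and Map3k14, the last of which had an adjusted p of 0.0513 without CTR library 3. These genes serve many receptors besides this family.

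Of 12 death receptor signalling genes, all tested, 4 were higher in SKO and 0 lower (also 0 lower at an unadjusted p below 0.05 and by DESeq2), against 11.5% and 12.2% of all genes tested. Their median log2 fold change was -0.0066, against -0.0026 over all genes tested. Mlkl, which carries out necroptosis, averaged 4.91 ± 0.211 CPM in SKO and 2.52 ± 0.555 CPM in CTR (log2 fold change 0.96, adjusted p = 0.00523). The kinase gene Ripk1 averaged 34.0 ± 2.41 CPM in SKO and 25.5 ± 2.91 CPM in CTR (log2 fold change 0.41, adjusted p = 0.0128). Bid, a link to mitochondrial death, averaged 8.91 ± 3.20 CPM in SKO and 5.21 ± 0.506 CPM in CTR (log2 fold change 0.77, adjusted p = 0.0327). Bid lost the call in 6 of the 8 fits without 1 library, with an adjusted p of up to 0.0842, and the list's count was as low as 2 in those fits.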

How the data were processed

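The authors deposited raw counts of reads, whole numbers with no normalization, in 1 table with a column for each of the 8 mice. The submitters' processing notes name genome build GRCm38. They list STAR 2.4.1d and Bowtie2 2.2.4, featureCounts 1.4.6, edgeR 3.8.6, bedtools 2.17.0, Cufflinks 2.1.1, cutadapt 1.7.1 and SAMtools 1.1, with no order of use. The annotation release, the strand setting and the handling of reads with several matches are not given in the sources used here, so reads of overlapping or near-identical genes could be split or lost. Symbols, exon lengths and positions came from GENCODE M21 (46488 of 46983 identifiers matched without their version number), whose gene models may differ from those counted.

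Tests used edgeR 4.0.16 under R 4.3.3: filterByExpr (at least 10 counts, scaled to the library, in 4 libraries), TMM factors, glmQLFit and glmQLFTest of SKO against CTR over 15638 genes, with Benjamini-Hochberg adjustment over all of them and a threshold of 0.05. CPM used the same factors. Standard errors are the log2 fold change divided by the square root of F. Ratios of untested members are of summed counts, corrected for depth, with exact 95% intervals, which, like the level of 3 counts (0.139 to 0.180 CPM per library), cover counting error only. No pair of libraries of a group agreed within sampling noise. Alternatives were other scalings, other count filters, DESeq2 1.42.0, robust empirical Bayes, Xist as a further term, and each library left out in turn. The labels state no pairs, but the mouse numbers in the titles fall into 4 neighbouring pairs of 1 SKO and 1 CTR mouse. Deviations from the group means correlated by 0.152 to 0.400 across genes within these pairs, and a fit with them as a block was added after the data were seen; what the neighbours share is not stated.

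Values are given in every library for members past the threshold, their ligand or receptor partners and the 5 most abundant members per length. From each pathway list come up to 4 called genes, by size of change and with means of 1 CPM or more, or the 2 most abundant where none was called. Tnf, Tnfsf4, Tnfsf15, Cd40, Tnfrsf9, Tnfrsf4 and the last 2 genes of the TRAF list were named after their values were seen. Members, lists and pairs were chosen with earlier results of these data known. Promoters (RefSeq, GRCm38.p6) were matched for 30 of 39 members and searched over 250 bases before the start. Some genes of the lists are counted in them and not reported singly here.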

Additional observations from a re-analysis of the deposited data

How the results depend on the processing

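A fit with neighbouring mouse numbers as a replicate block, added after the data were seen, kept all 8 members and called 4313 genes (2016 higher, 2297 lower). It gave 2 higher ligands (Tnfsf18 added), 0 lower genes outside the name rule, 1 lower neurotrophin gene (Sort1) and -0.045 for Ntrk2, and changed no other call of a gene named here. The 8 members past the threshold kept their call under each other scaling, without a count filter, with DESeq2 and with robust empirical Bayes. With at least 1 CPM asked of 4 libraries, Ltb was no longer tested, leaving 0 higher ligands, and without CTR library 1 Tnfrsf18 was lost (adjusted p = 0.0521). The count of higher ligands, 1 in the main fit, was 2 with library totals, upper-quartile factors or DESeq2 and 4 without a filter, where the higher members numbered 7 against 4. The single lower gene outside the name rule, Relt, was lost (0) without a filter, with DESeq2 and with robust empirical Bayes. Leaving out 1 library gave 2589 to 4370 called genes, 1253 to 2058 higher and 1336 to 2312 lower, 4 to 6 higher members, 2 to 4 higher receptors and 1 to 3 higher ligands. It gave 0 to 1 lower genes outside the name rule, 2 to 4 higher death receptor genes, and 0 to 1 lower neurotrophin genes.

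With Xist as a further term, 77 genes were called, 45 higher and 32 lower. Counts were then 0 for members, receptors and ligands in either direction, 1 higher (Eda2r) and 0 lower outside the name rule, 0 higher in the TRAF and death receptor lists and 0 lower in the ectodysplasin list. The Xist and group terms overlap since the groups did not overlap in Xist, and the cause was not tested. Called members kept their direction there, from -1.57 (Tnfrsf22, adjusted p = 0.120) to 2.39 (Ltb, 0.151) on the log2 scale. The sign reversed for Tnfrsf12a (-0.17), Tnfrsf21 (0.34), Tnfrsf4 (-0.22), Tnfrsf1a (-0.060), Relb (-0.025), Bid (-0.097), Bmp4 (0.053) and Sort1 (0.11). Near-zero log2 fold changes reversed in some fits without 1 library: Tnfrsf11a (-0.043 to 0.24), Tnfsf13 (-0.17 to 0.16), Tnfrsf10b (-0.087 to 0.026), Ntrk2 (-0.18 to 0.22) and Ppp1r8 (-0.21 to 0.048). Tnfrsf22 added up with Tnfrsf23 gave 0.49, a sum that opposite changes make small and that tests neither gene. Scaling moved the median over all genes to at most 0.02 and the share of calls that were higher to at most 53.4%, from 48.4%. Depth limits the untested members: Tnfsf4, Tnfsf15 and Cd40 rest on few reads, and p-values measure the spread among 4 mice a group.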

Other observations

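Other cell types a peeled sheet can hold were followed by their markers. Summed over their markers, macrophage genes were at 4.91 to 6.91 CPM in SKO and 4.83 to 5.22 CPM in CTR, neutrophil genes at 4.18 to 5.06 CPM in SKO and 5.22 to 12.4 CPM in CTR, and mast cell genes at 8.84 to 17.1 CPM in SKO and 10.1 to 23 CPM in CTR. Kit (13.1 CPM in SKO, 14.5 CPM in CTR) made nearly all of the mast cell sum, and Mpo and Cxcr2 most of the neutrophil sum. The other mast cell and neutrophil genes had at most 7 counts in a group. Fibroblast genes were at 17.5 to 56.1 CPM in SKO and 33.8 to 52.7 CPM in CTR, endothelial genes at 2.53 to 3.07 CPM in SKO and 2.82 to 8.71 CPM in CTR, and muscle genes at 2.15 to 21.97 CPM in SKO and 2.68 to 7.17 CPM in CTR. No tested gene of these 6 lists passed with edgeR or DESeq2, apart from 1 neutrophil gene that was lower by DESeq2 and at an unadjusted p below 0.05. Hair follicle bulge and germ genes summed to 201 to 304 CPM in SKO and 220 to 274 CPM in CTR.

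Superfamily genes outside the name rule that were too low to be tested were Fasl, with 2 counts in SKO and 3 in CTR, Cd40lg with 4 in SKO and 1 in CTR, Cd70 with 1 in SKO and 0 in CTR, and Cd27 with 1 in SKO and 3 in CTR. Members of the family often lie side by side in the genome, and some neighbours differed in their call. Tnfrsf1a and Ltbr lie 35.5 kb apart on chromosome 6 and neither passed the test. Tnfrsf22 and Tnfrsf23 passed in opposite directions, and Tnfrsf18 passed while Tnfrsf4 beside it did not.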
